A study of Brassica oleracea with 4 samples.

Results

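The genes followed here encode enzymes and regulators of salicylic acid metabolism in broccoli (Brassica oleracea) microgreens. They were chosen by identifier, with their roles taken from their Arabidopsis matches, and they make up 6 of the 135 genes of the deposited table. The response genes PR1 and PR-2 are outside this set and are given further below. All 6 were already known to stand higher with calcium, so their values below are a description of a selected set and no test was made on them. Seedlings received a daily spray of 10 mmol/L calcium chloride or of water alone. Both groups shared one growth regime, on hydroponic pads at 25 °C, in darkness for 4 days and then under light of 42 µmol/(s·m2) for 12 h of each day. Hypocotyls, the stems below the seed leaves, were taken at 10 days for RNA sequencing. The labels give 2 libraries for each spray, and the sources used here do not give the cultivar or the number of trays behind a library.

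Salicylic acid is a small phenolic hormone that switches on defence genes against microbes that feed on living tissue. In Arabidopsis most of it is made in a short route that starts in the plastid, where isochorismate synthase turns chorismate into isochorismate. The transporter EDS5 moves isochorismate to the cytosol, the GH3 enzyme PBS3 joins it to glutamate, and the product breaks down to salicylic acid. Calcium enters upstream, because CBP60g, a transcription factor that binds calmodulin, activates the isochorismate synthase gene. DMR6 hydroxylates salicylic acid and so lowers its level, and WRKY 70 acts among the genes that respond to it. These roles are known from Arabidopsis, and the broccoli genes carry them here only through the Arabidopsis match in the deposited annotation.

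Each gene has 1 RPKM value per spray, a read count scaled to gene length and to the total of mapped reads. RPKM is a per-length scale, so levels of different genes can be set side by side. No library has a value of its own, and the spread between libraries and the depth are unknown. A difference between the sprays therefore cannot be set against replicate error. The table was checked to hold no gene under a 2-fold difference, and 0.0423 was the highest adjusted p-value among the genes of the authors' deposited table. At least 2-fold higher levels with calcium were found for 6 of the 6 genes, and for 52.6% of all genes in the table (71 of 135). At least 3-fold higher levels were found for 5 of the 6 genes, all but DMR6, and for 25.2% of the table (34 of 135). Since the table was selected on this contrast and the 6 genes for their direction in it, nothing is read from these shares.

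The activator was among the least abundant of the 6 genes. CBP60g (Bo7g094930, matching AT5G26920) was at 29.8 RPKM with calcium and 6.15 RPKM with water, a 4.84-fold higher level. With calcium it was the lowest of the 6 genes, and with water the GH3 gene alone lay below it. Its level with calcium lay close to the lower bound of the table: only 6 of the 135 genes had a lower value in the group where they were higher, and the lowest such value was 25.8 RPKM. A regulator of still lower abundance could thus differ between the sprays and not be listed. The annotation named no further gene of the Cam-binding protein 60 type.

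Isochorismate synthase, the enzyme that commits chorismate to this route, was represented by a pair of genes that both match AT1G74710 (ICS1). Bo6g086860 was at 161 RPKM with calcium and 17.9 RPKM with water, 8.97-fold higher. Bo2g082320 was at 52.1 RPKM with calcium and 16.1 RPKM with water, 3.23-fold higher. The copies thus stood nearly level with water and apart with calcium. The level of Bo6g086860 was 3.08 times that of Bo2g082320 with calcium and 1.11 times with water. It supplied 75.5% of the summed ICS1 RPKM with calcium and 52.7% with water. The sum of both copies was 213 RPKM with calcium and 34.0 RPKM with water, 6.25-fold higher, and of this gain of 179 RPKM the copy Bo6g086860 held 143 RPKM. With copies alike in length and each shared read counted for either copy, the sum does not depend on how such reads were divided. Each single value does, and the sum would change too if shared reads were dropped. The sources used here do not say how reads that match both were counted.

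The ICS1 pair could be placed among the 13 cases in the table in which more than 1 gene matched the same Arabidopsis gene. In all 13 cases the copies lay on the same side. Copies that differed by less than 2-fold are not listed, so the agreement and the gaps below hold for listed copies alone. The calcium to water ratios of the ICS1 copies differed by 2.77 times, the fourth widest gap of the 13, where the median gap was 1.23 times. With water the ICS1 copies were closest in level of all 13 cases, and no other case lay within 1.5 times, the pair matching AT2G41410 lying just beyond. Of the 3 cases with wider gaps, 2 had copies nearer in level with calcium and 1 had copies farther apart, as for ICS1. The pairs matching AT1G14870 and AT5G39670 stood 4.55 and 1.27 times apart with calcium, against 17.7 and 4.58 times with water. The pair matching AT1G72290, Kunitz inhibitor genes that were lower with calcium, stood 10.5 times apart with calcium and 3.78 times with water.

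**Figure D1:**
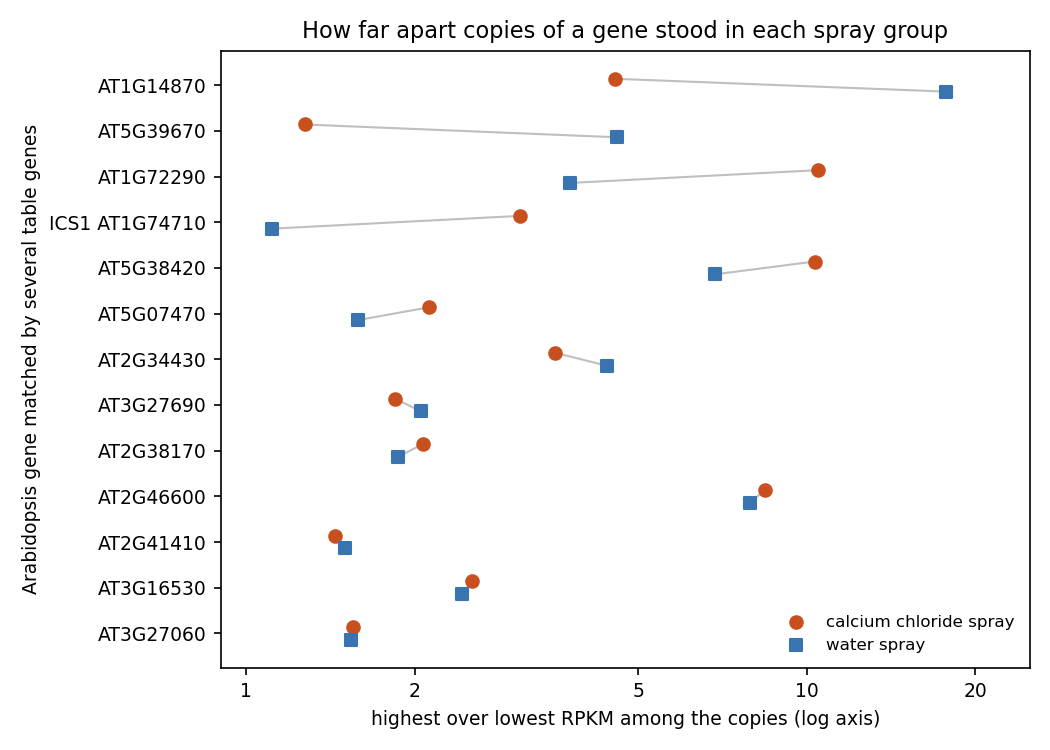
Ratio of the highest to the lowest RPKM among genes that match the same Arabidopsis gene (log axis), for the calcium chloride spray (circles) and the water spray (squares), in 13 cases ordered from the widest to the narrowest gap between the copies' calcium to water ratios. The ICS1 copies were 3.08 times apart with calcium and 1.11 times apart with water, the smallest distance with water of the 13 cases.

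The next enzyme of the route had the largest calcium to water ratio of the whole table. The GH3 gene Bo9g167830 matches AT5G13320, the Arabidopsis gene PBS3, whose enzyme joins glutamate to isochorismate. The deposited annotation calls it auxin-responsive after its family, of which other members join amino acids to auxin or jasmonate, and it was the single gene of the table annotated as GH3. It was at 61.4 RPKM with calcium and 2.30 RPKM with water, 26.6-fold higher. With water it was the lowest of the 6 genes and the second lowest of all 135, and with calcium it was at place 3 of the 6. Summed ICS1 RPKM was 3.47 times that of this gene with calcium and 14.8 times with water. The nearer levels with calcium restate the large ratio for which this gene stands out, so nothing further is read from them. The calcium to water ratio of the GH3 gene, like the 14.8 times above, rests on a small value with water. Adding 1 RPKM to each group gave 18.9-fold and adding 5 RPKM gave 9.09-fold, still the largest of the 6 genes.

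DMR6 had the smallest ratio of the 6 genes and the highest level with water. This oxygenase gene (Bo2g159320, matching AT5G24530) was at 114 RPKM with calcium and 50.6 RPKM with water, 2.25-fold higher. The level of DMR6 was 0.535 times the summed ICS1 level with calcium and 1.49 times with water. Transcripts of this DMR6 gene were thus below the summed ICS1 transcripts with calcium and above them with water. Further genes for either enzyme that differed by less than 2-fold would not be listed. The total transcripts for removal and for synthesis of salicylic acid are therefore unknown. The gain of DMR6 in absolute level, 63.2 RPKM, was nonetheless the second largest of the 6 genes. One more gene of the table, Bo5g004490, named after its values were seen, is annotated to the same oxygenase superfamily. It matches AT1G04350, a different Arabidopsis gene, and was at 33.2 RPKM with calcium and 1.44 RPKM with water, 23.1-fold higher.

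WRKY 70 (Bo6g071110, matching AT3G56400) encodes a transcription factor that in Arabidopsis promotes salicylic acid responses, represses jasmonate responses and, with WRKY54, also restrains salicylic acid synthesis. It was at 35.7 RPKM with calcium and 8.62 RPKM with water, 4.15-fold higher. Its level stayed near that of CBP60g in both groups, at 1.20 times with calcium and 1.40 times with water. The 2 regulators thus had ratios between those of the ICS1 copies and low levels in both groups. No other gene of the table was annotated as a WRKY factor.

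**Figure D2:**
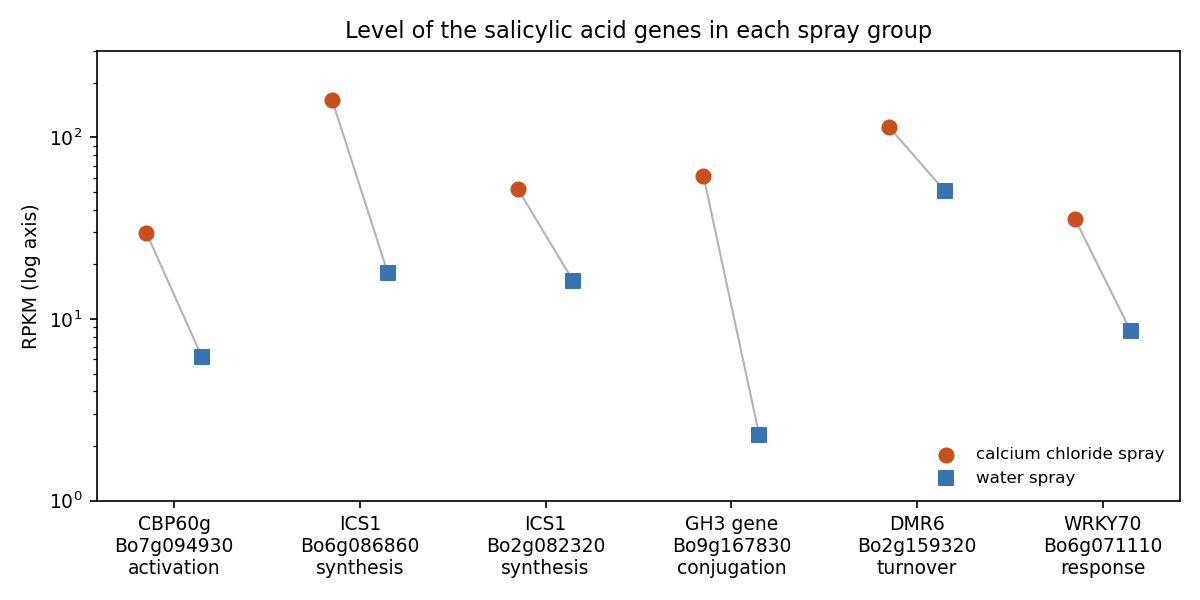
RPKM (log axis) of the 6 salicylic acid genes in pathway order, with calcium chloride spray (circles) and water spray (squares), 1 deposited value per group and no error bar because no library has a value of its own. All 6 circles lie above their squares, from 2.25-fold for DMR6 to 26.6-fold for the GH3 gene.

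Side by side, the order of the levels differed between the sprays. With calcium it ran from Bo6g086860 (161 RPKM) through DMR6, the GH3 gene, Bo2g082320 and WRKY 70 to CBP60g (29.8 RPKM). With water it ran from DMR6 (50.6 RPKM) through Bo6g086860, Bo2g082320, WRKY 70 and CBP60g to the GH3 gene (2.30 RPKM). Without library values, neighbours in these orders cannot be told apart or together beyond their spread. The highest and the lowest of the 6 genes stood 5.40 times apart with calcium, against 22.0 times with water. All 6 were chosen as higher with calcium, where no higher gene of the table was under 27.3 RPKM. Their water values had no such floor, so nothing is read from the narrower range with calcium. The 6 genes summed to 454 RPKM with calcium and 102 RPKM with water, 4.46-fold higher. Both ICS1 copies and the GH3 gene, the enzymes that make salicylic acid, held 60.4% of that sum with calcium and 35.7% with water. DMR6 held 25.1% with calcium and 49.8% with water.

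The median log2 ratio of the 6 genes was 2.16, against 1.04 over all 135 genes and 1.58 over the 71 genes that were higher. Because the 6 genes were chosen as higher in a table without smaller differences, their median was bound to be at least 2-fold. Nothing is read from its distance to the median over all genes. Of the 6 genes, 5 had a ratio above 2.98-fold, the median of the higher genes, and DMR6 lay below it. Levels were on the low side: 5 of the 6 were under the median water level of the higher genes, 36.3 RPKM, and 4 of the 6 were under their median calcium level, 109 RPKM. Among the 71 higher genes the GH3 gene was at place 1 by ratio, Bo6g086860 at 7, CBP60g at 17, WRKY 70 at 21, Bo2g082320 at 30 and DMR6 at 60. By the gain in RPKM the order was different, with Bo6g086860 at place 19, DMR6 at 39, the GH3 gene at 40, Bo2g082320 at 54, WRKY 70 at 64 and CBP60g at 67.

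**Figure D3:**
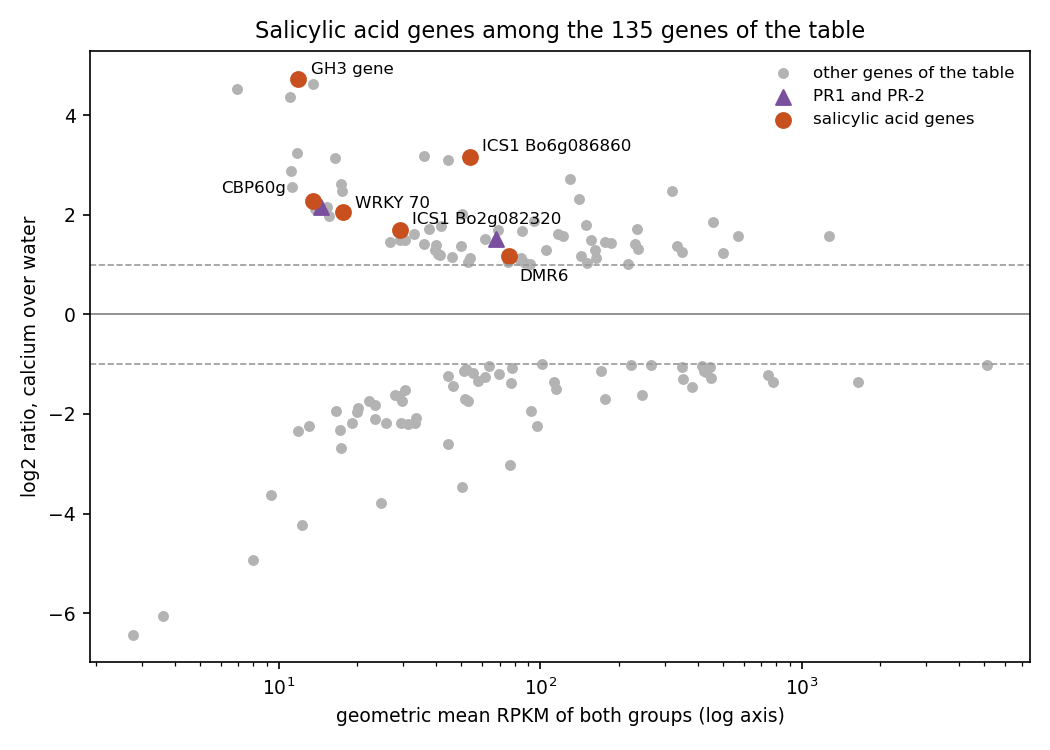
Log2 ratio of calcium to water RPKM against the geometric mean RPKM of both groups (log axis) for the 135 genes of the table, with the 6 salicylic acid genes as large circles, PR1 and PR-2 as triangles and lines at 2-fold. No gene lies between the lines, since the table holds none under 2-fold, and the 6 genes lie at log2 ratios from 1.17 to 4.74.

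The authors' deposited table gave an adjusted p-value of 0 for Bo6g086860, 4.70e-11 for the GH3 gene, 0.000141 for DMR6, 0.00227 for Bo2g082320, 0.00787 for WRKY 70 and 0.0134 for CBP60g. The deposited value was 0 for 41 of the 135 genes, Bo6g086860 among them. The order of the 6 deposited values was not that of the ratios. DMR6, with the smallest ratio and a higher level, had a lower deposited value than CBP60g at 4.84-fold and WRKY 70 at 4.15-fold. The sources used here do not give the test behind these values or say whether it used the spread between libraries. All 6 genes stood in cluster 1 of the authors' deposited table, as did all 71 higher genes.

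A list of 47 Arabidopsis genes for synthesis, activation, turnover, N-hydroxypipecolic acid and response, drawn up with earlier results of these data known, had 7 with a match in the table. They correspond to 8 broccoli genes, the 6 above and 2 of the response. All 8 were higher with calcium and 0 were lower, beside 52.6% higher over the whole table. The direction of the 6 was fixed by their choice, which leaves the 2 response genes, so nothing is read from this count. PR1 (Bo3g088360), the classical marker of salicylic acid response, was at 30.5 RPKM with calcium and 6.85 RPKM with water. The glucanase gene PR-2 (Bo4g111320) was at 115 RPKM with calcium and 40.1 RPKM with water. Their ratios, 4.45-fold and 2.87-fold, lay within the range of the 6 genes. That range spans places 1 to 60 of the 71 higher genes, so most higher genes lie within it. The other 40 listed genes, among them EDS5, SARD1, EDS1, PAD4, NPR1 and the glucosyltransferases that store salicylic acid as sugar conjugates, were not analysed here. The table holds only genes that differed and were at least moderately abundant, so their level is unknown.

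A pair of genes outside the list, chosen after their values were seen, belong to families close to the pathway. Bo1g008240 is annotated as ADR1-L1, a helper of immune receptors that in Arabidopsis works with EDS1 and PAD4 upstream of salicylic acid. It was at 44.1 RPKM with calcium and 16.1 RPKM with water, 2.74-fold higher. Bo2g028670 is annotated as MES18, from the methyl esterase family whose member MES9 releases salicylic acid from its methyl ester. It was at 28.9 RPKM with calcium and 96.6 RPKM with water, 3.34-fold lower. Whether MES18 acts on methyl salicylate was not examined.

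For each of the 6 genes the nearest other gene of the table was found by the distance between their log2 RPKM values in both groups. With 2 group values per gene such likeness is weak, and it says nothing of shared function. CBP60g was nearest to the heavy metal domain gene Bo3g023070 at a distance of 0.12, with 28.7 RPKM with calcium and 6.62 RPKM with water. DMR6 was nearest to the calcium pump gene ACA11 (Bo6g072820) at 0.089, with 108 RPKM with calcium and 52.3 RPKM with water. WRKY 70 was nearest to the copine gene BON3 (Bo8g112290) at 0.26. Bo2g082320 was nearest to the plastid sugar phosphate translocator GPT2 (Bo1g098630) at 0.15, the GH3 gene to the unannotated Bo9g032500 at 0.28, and Bo6g086860 to the defensin 1.3 homologue Bo6g086120 at 0.39. The last distance was the widest of the 6.

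A constant added to both groups lowers the ratios of low genes most. At 5 RPKM added, the log2 ratio of CBP60g was 1.64 against 2.28 with none, that of WRKY 70 was 1.58 against 2.05, and that of the GH3 gene was 3.18 against 4.74. DMR6, the most abundant of the 6 with water, moved least, with 1.10 against 1.17. The order of the 6 genes by ratio was the same with 0, 1 and 5 RPKM added, and all 6 remained at least 2-fold higher.

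**Figure D4:**
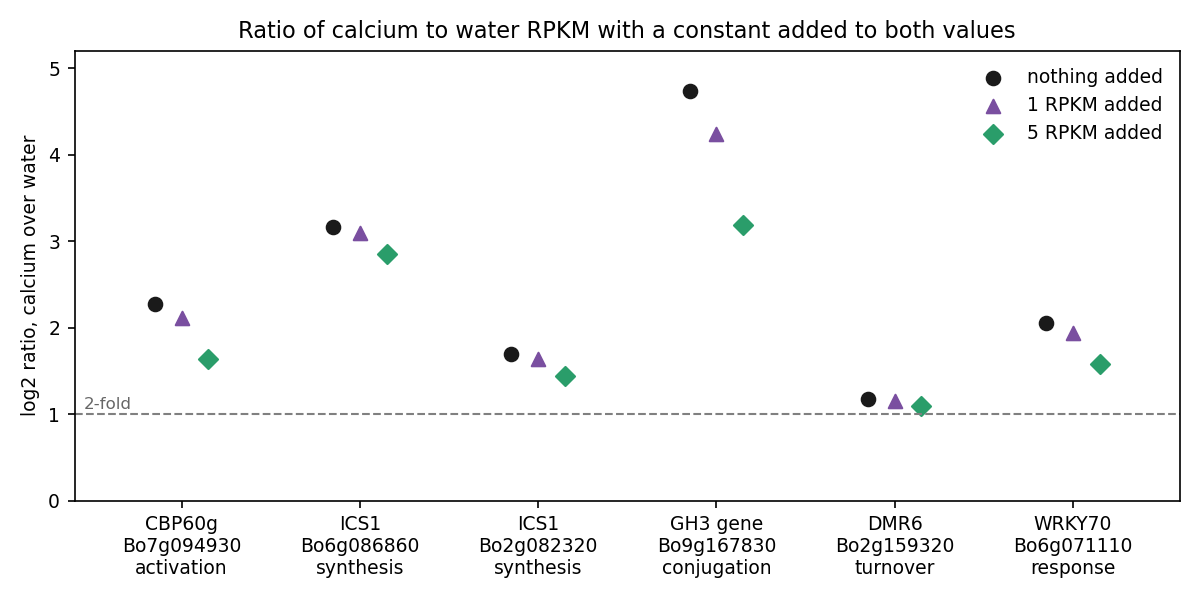
Log2 ratio of calcium to water RPKM of the 6 salicylic acid genes with nothing added (circles), 1 RPKM added (triangles) and 5 RPKM added (diamonds) to both values, with a line at 2-fold. The GH3 gene went from 4.74 to 3.18 and DMR6 from 1.17 to 1.10, and all points stayed above the line.

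Transcripts matched by annotation words for other tissues also differed between the sprays. Whether the hypocotyl itself makes these transcripts was not examined, so they are not read as a sign of other tissue. All 12 genes matched by the cotyledon and leaf words, for antenna proteins, RuBisCO small subunits and photosystem I, were lower with calcium by 2.01-fold to 3.83-fold, beside 47.4% of the whole table at least 2-fold lower. Their summed level was 7147 RPKM with calcium and 15889 RPKM with water, with single genes from 40.0 to 3605 RPKM with calcium and from 95.1 to 7288 RPKM with water. The single gene matched by the root words, RGF9 (Bo2g166400), was at 16.2 RPKM with calcium and 54.3 RPKM with water. Whether it marks root tissue in these samples was not examined. Both genes matched by the seed and embryo words were higher with calcium. The M17 gene Bo4g190800 was at 50.1 RPKM with calcium and 2.42 RPKM with water (20.7-fold). The 2S albumin superfamily gene Bo9g120390 was at 376 RPKM with calcium and 142 RPKM with water (2.65-fold). The match of Bo9g120390 rests on the name of its superfamily, so this gene is not read as a seed marker. The part of these differences in the values of the 6 salicylic acid genes was not tested. In such bulk RNA, fewer cells of a type and less RNA per cell cannot be told apart. No marker words of the hypocotyl were searched for, so the hypocotyl label was not checked.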

How the data were processed

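Total RNA of hypocotyls was extracted with a column kit and made into TruSeq libraries, per the labels' protocols, and CASAVA is named, without a version, in the submitters' processing notes. The aligner, genome build and gene models were not given in the sources used here. For each gene the authors deposited 1 RPKM per group. How 2 libraries became 1 value is not stated, and water is the only group that the column named control can stand for. The deposited log10 columns were checked to be the log10 of the RPKM columns, and the deposited signed fold score and difference score to match the RPKM values (tolerance 1.0e-06). The adjusted p-value and cluster number are the authors' deposited values.

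Ratios were computed from the RPKM values with nothing added, and 1 or 5 RPKM as alternatives. limma had been planned for library values and was not run, since each group has 1 value. Alternatives were a minimum of 5 RPKM in both groups, a median shift and a 3-fold limit. The sum of the ICS1 copies was added after seeing the data. The 6 genes, the pathway list and the marker words were chosen with earlier results of these data known. Genes named are these 6, table genes on the pathway list and the nearest gene to each of the 6, and others are said to be chosen after their values were seen or appear as markers or copies. Ratios, neighbours and copy gaps were tested on simulated data. The RefSeq gene table held 0 of the 135 identifiers. Python 3.11.15 was used with pandas 2.3.3, NumPy 2.4.6 and matplotlib 3.10.9.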

Additional observations from a re-analysis of the deposited data

How the results depend on the processing

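No value of any setting changed direction, but the median shift was the sole setting that could have reversed one. An added constant, a minimum level, a higher limit or the ICS1 sum cannot reverse genes that are all higher. The count of the 6 salicylic acid genes at least 2-fold higher with calcium stayed within 1.5 times of 6, and was lowest, at 4, after the log2 ratios were shifted by the table median of 1.04, which put DMR6 and the ICS1 copy Bo2g082320 under 2-fold. That shift uses selected genes alone and so does not normalize the libraries. The median log2 ratio of the 6 genes was 2.16, and 2.02 with 1 RPKM added, 1.61 with 5 RPKM added, 2.05 with at least 5 RPKM in both groups (5 genes, without the GH3 gene), 1.12 after the shift and 2.28 with the ICS1 copies summed. Of the 8 listed pathway genes, 5 were at least 2-fold higher after the shift, and 2 remained when the 6 genes were left out. With a 3-fold limit 5 of the 6 genes were left, all but DMR6. No paired analysis was possible because the table gives 1 value per group, and for the same reason no replicate could be left out in turn. The unknown depth allows no counting interval, which matters most for the GH3 gene at 2.30 RPKM with water.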
